A study of Mus musculus with 48 samples.

Results

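Strongly resected Vκ joints are junctions in which a Vκ partner of the Jκ1 break was joined 20 to 200 bp away from the position where the RAG1/2 recombinase had cut it. They were chosen by position. Vκ sites were the chromosome 6 positions (mm9) with 300 or more junctions pooled over the 9 WT libraries of the Jκ1 signal end bait from STI-571-treated cells, with no position within 50 bp holding more. This placed 122 sites between positions 67506211 and 70654172, with 300 to 118215 pooled junctions each. Every junction 20 to 200 bp from its nearest site was a member, which gave 759285 members among 7179679 Vκ joints within 200 bp and 8250887 junctions in all. Ku70-/- libraries held 739630 of the members and WT libraries 19655. Counting junctions alike in prey position and strand, in bait end and in overlap or gap once per library left 94847 distinct members. Independent joints alike in all of these are merged, and reads of the same joint that align differently are counted apart. Distinct joints are therefore not counts of molecules. Distance was counted from the site. Where the site is the first base of the signal end, a coding end had lost 1 base less than its distance and a signal end exactly its distance. This is approximate at sites whose heptamer did not begin at that position and at sites with none.

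The junctions come from vAbl cells, mouse progenitor B lines transformed by the Abelson kinase, in which the kinase inhibitor STI-571 stops division and switches on V-J recombination at the Igκ locus. HTGTS-JoinT-seq reads outward from a fixed bait, here the coding end (CE) or the signal end (SE) of the Jκ1 break, and records where the prey begins. WT and Ku70-/- cells were taken cycling with no STI-571, or after 96 h of 3 µM STI-571 with DMSO, with 5 µM L67 or with 25 µM L82-G17, so the DMSO, L67 and L82-G17 groups share the arrest. L67 inhibits DNA ligases I and III, and L82-G17 is selective for DNA ligase I. Each of the 16 groups had 3 libraries, and the numbers given to replicates here only name them. Each genotype was 1 cell line clone (clone B for WT and clone B1 for Ku70-/-), so loss of Ku70 and other differences between the clones cannot be told apart. Nothing in the labels ties libraries to separate cultures, and p-values measure the spread between these libraries.

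RAG1/2 cuts between a gene segment and its recombination signal sequence (RSS). The cut leaves a hairpin-sealed coding end, which must be opened, and a blunt signal end that begins with the RSS heptamer. Ku70 and Ku80 bind the ends, start classical non-homologous end joining (NHEJ) and protect the ends from resection. Without Ku, ends are joined by alternative end joining (A-EJ), which is known for losing bases and for using microhomology (MH), short repeats shared by both ends. A Vκ RSS has a 12-bp spacer and a Jκ RSS a 23-bp spacer, so that the whole elements are 28 and 39 bp long.

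The bases on either side of the break show what a resected joint has to cross. The next lines give the last 40 coding bases and the RSS of 3 Vκ segments named in the results, read from mm9 in the direction of the gene, with heptamer and nonamer in capitals. They are shown because joints at these segments are followed through the text. The ranges are chr6:70264861-70264928 on the minus strand, chr6:67892040-67892107 on the minus strand and chr6:70468804-70468871 on the plus strand, and each covers the 3′ end of the annotated gene segment and the RSS after it.
Igkv8-21: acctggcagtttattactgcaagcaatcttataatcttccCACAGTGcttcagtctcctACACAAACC
Igkv9-124: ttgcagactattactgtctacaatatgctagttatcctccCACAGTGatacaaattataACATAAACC
Igkv3-12: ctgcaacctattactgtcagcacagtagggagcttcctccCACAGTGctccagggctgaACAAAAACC
The bait side is the Jκ1 RSS and coding segment, at chr6:70672517-70672593 on the plus strand, with nonamer and heptamer in capitals.
Igkj1: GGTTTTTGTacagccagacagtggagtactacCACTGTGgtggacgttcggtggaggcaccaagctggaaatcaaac
Of the 122 sites, 115 had CAC as the first signal bases on the strand most of their junctions gave, 4 had it on the other side and 3 had none. The full heptamer CACAGTG stood at 102 sites. An annotated gene segment ended within 30 bp of 90 sites, and 52 sites lay in deletional and 70 in inversional orientation to Jκ1.

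Libraries held 8294 to 385847 junctions. The Ku70-/- DMSO libraries numbered replicate 1 stood apart for both baits, and both are included unless stated. Values are those of STI-571-treated (arrested) libraries wherever cycling libraries are not named. They held 289 (CE) and 292 (SE) distinct members, where the other STI-571-treated Ku70-/- libraries held 2463 to 7623, and each distinct member was read 87.7 and 124 times on average. At sites with enough joints, 39 of 72 (CE) and 41 of 72 (SE) had a resected share below 5% or above 90% in these libraries. In DMSO replicates 2 and 3 this was so at 0 to 2 of 99 to 104 sites. PCR copies are not independent molecules, so counting intervals cover counting error only.

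Counting all reads and using these sites, about 1 in 3 Vκ joints of the Jκ1CE bait was a strongly resected joint in Ku70-/- cells, and under 1 in 100 in WT cells. Most arrested WT CE members, 14224 of 16093, carried inserts of 10 or more bases, and the WT share is lower without them. The resected share, the percentage of Vκ joints within 200 bp that lay 20 bp or more from the site, was 35.9% ± 4.83 (SD, n = 9) in STI-571-treated Ku70-/- libraries and 0.603% ± 0.143 (n = 9) in WT libraries of the CE bait. The highest WT library, at 0.773%, lay far below the lowest Ku70-/- library, at 27.2%. The difference of 35.3 percentage points had p = 0.00025 by an exact two-sided permutation test within treatments, the smallest p this design allows (adjusted p = 0.000958 over 23 tests). With each distinct joint counted once the difference was 35.7 points. Shares of distinct joints were 5.29 to 9.75% in arrested WT and 32.8 to 51.0% in arrested Ku70-/- CE libraries. Merging alike joints removes more of the nearer WT joints. In WT CE DMSO replicate 1, 361463 Vκ joints gave 11883 distinct ones, while 2450 members gave 1159. The CE libraries did not place the sites, but the WT SE libraries did, so the SE shares are given without a test. They were 0.0652 to 0.245% in arrested WT and 25.5 to 39.1% in arrested Ku70-/- libraries, and 1.51 to 3.08% and 30.6 to 44.0% with distinct joints. Of the arrested WT SE members 31.5 to 71.4% had a prey that reads across the break site, against 0 to 0.911% in arrested Ku70-/- SE libraries. Whether the distance of such members measures resection was not tested.

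**Figure D1:**
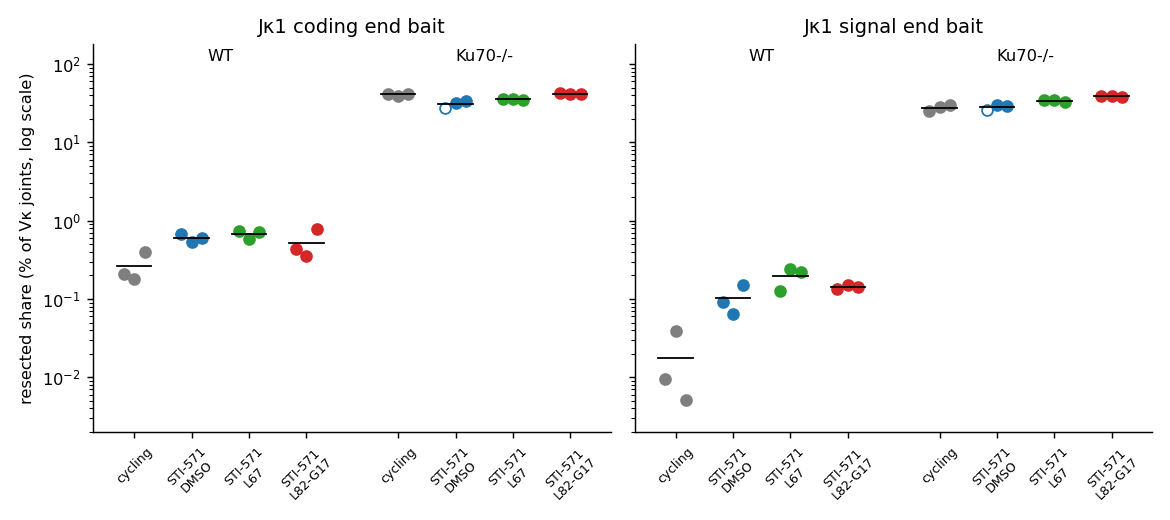
Share of Vκ joints within 200 bp that lay 20 to 200 bp from the site, in percent on a log axis, for each genotype, bait and treatment. Points are libraries, bars are means of 3, and the open circle is Ku70-/- DMSO replicate 1. Every Ku70-/- library lies at 25.2% or higher and every WT library at 0.773% or lower.

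Among arrested Ku70-/- libraries the resected share was higher with L82-G17 than with DMSO from both baits. From the CE bait it was 27.2, 32.2 and 33.7% with DMSO. It was 35.6, 35.7 and 34.9% with L67, and 42.1, 40.8 and 41.3% with L82-G17. The L67 and L82-G17 libraries each lay above all DMSO libraries, by 4.38 and 10.4 percentage points on average. The DMSO libraries of the SE bait had 25.5, 30.1 and 29.5%. Those with L67 had 34.6, 34.4 and 32.9%, and those with L82-G17 had 39.1, 38.9 and 37.8%. Here the differences from DMSO were 5.59 and 10.2 points, again without overlap. For all 4 comparisons p = 0.1 by the exact two-sided permutation test, which is the smallest p that 3 against 3 libraries allow, so none could pass (adjusted p = 0.177). Without DMSO replicate 1 the differences were 2.45 (L67) and 8.44 points (L82-G17) for CE and 4.17 and 8.79 points for SE. As a share of the 500000 read pairs, members were fewer with L82-G17 than with DMSO for the SE bait, by 1.38 percentage points, while for the CE bait they were more by 2.08. L67 and L82-G17 were used at different doses, and their values are given only side by side.

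In WT CE libraries the shares of the same treatments overlapped. The difference from DMSO was 0.0801 percentage points with L67 (exact permutation p = 0.3) and -0.0821 points with L82-G17 (exact permutation p = 0.5). Arrested Ku70-/- DMSO libraries lay below cycling ones for the CE bait, where cycling libraries had 41.7, 39.3 and 41.6% (difference -9.85 points, exact permutation p = 0.1). With distinct joints the shares were 32.8, 41.3 and 41.3% with DMSO and 38.9, 41.4 and 42.8% in cycling libraries, and the difference was -2.56 points (exact permutation p = 0.5). As a share of all read pairs, CE members were more frequent with DMSO than in cycling libraries. For the SE bait cycling libraries had 25.2, 28.1 and 30.1% and overlapped with DMSO (exact permutation p = 0.8). With sites placed by the Ku70-/- SE libraries the DMSO mean lay below the cycling mean for this bait as well. The cycling values rest on few distinct joints, with 59 to 230 distinct members per library. WT cycling libraries held 207 members for the CE bait and 11 for the SE bait in all.

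The members of Ku70-/- libraries lay mostly in the first 20 bp past the threshold and thinned out with distance. The median distance was 31 to 34 bp in every arrested Ku70-/- library, and 63.5 to 73.0% of members lay 20 to 39 bp from the site. The 90th percentile was 47 to 73 bp, and 0.967 to 4.51% of members lay at 100 to 200 bp. In arrested WT CE libraries the median was 22 or 23 bp and the 90th percentile 29 to 32 bp. The medians differed by 9.89 bp between genotypes for the CE bait (32.4 against 22.6 bp, exact permutation p = 0.00025, adjusted p = 0.000958), with no overlap. Of the 16093 arrested WT CE members, 14224 carried an insert of 10 or more bases. In 92.0% of these the distance exceeded the insert length by 0 to 10 bp. The WT distances thus went with insert length, and whether they measure resection was not tested.

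In Ku70-/- cells joints lay on both sides of the threshold in numbers of the same order. Arrested Ku70-/- CE libraries had 710 to 4080 joints just outside, at 18 and 19 bp, and 3774 to 5204 just inside, at 20 and 21 bp. The SE libraries had 1445 to 4358 and 368 to 4732. In arrested WT CE libraries there were 635 to 3278 just outside and 236 to 860 just inside. The Ku70-/- values of 710, 1445 and 368 came from DMSO replicate 1.

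An exponential fitted to the member distances gave the distance over which their density falls to 50%, called the halving distance here. From the CE bait it was 10.9 to 12.3 bp with DMSO or L67, and 14.1 to 14.4 bp with L82-G17. For the SE bait it was 11.9 to 12.8 bp with DMSO or L67 and 14.4 to 15.1 bp with L82-G17. The L82-G17 libraries lay above the other arrested libraries of their bait, and this measure was not tested. The median differed by 2.33 bp between L82-G17 and DMSO for the CE bait, where all 3 L82-G17 libraries had 34 bp (exact permutation p = 0.1, adjusted p = 0.177), and by 0.667 bp for the SE bait (exact permutation p = 0.9). With L67 the mean of the medians equalled that of DMSO for both baits. In cycling Ku70-/- CE libraries 5.43 to 15.3% of members lay at 100 to 200 bp. The cycling SE libraries had 13.3, 0 and 7.21% there, with halving distances of 26.0, 8.61 and 17.2 bp. Arrested WT CE members had a halving distance of 3.03 to 4.39 bp, and most of them carried inserts of 10 or more bases.

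**Figure D2:**
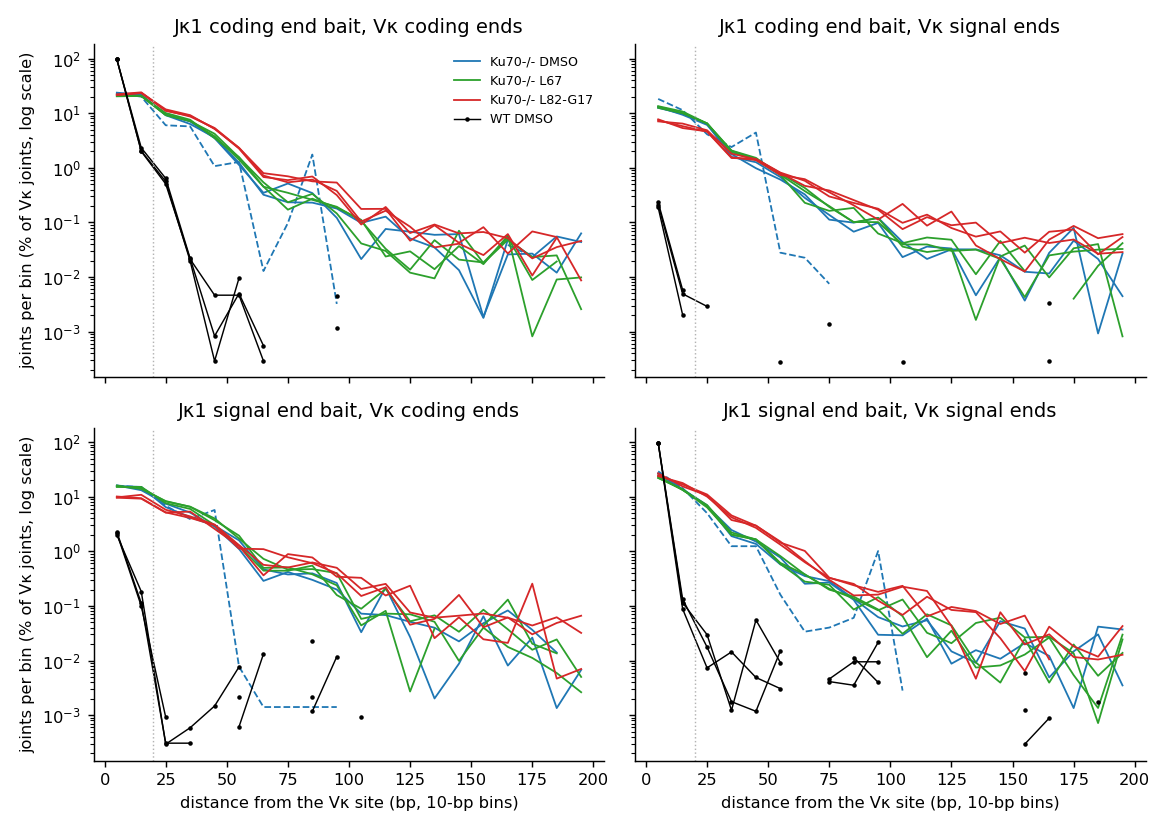
Percent of Vκ joints per 10-bp bin of distance from the site, on a log axis, for coding and signal end preys of each bait. Lines are libraries of arrested Ku70-/- cells with DMSO, L67 or L82-G17, the dashed line is DMSO replicate 1, and black lines are WT with DMSO; the dotted line marks 20 bp. The Ku70-/- lines decline past 20 bp, with halving distances of 10.7 to 18.4 bp by end kind.

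Members were on the bait's own kind of end more often in WT than in Ku70-/- CE libraries. NHEJ is known to join coding to coding and signal to signal ends. In arrested WT CE libraries 98.95 to 99.95% of the members were on coding ends. In arrested Ku70-/- CE libraries 59.04 to 75.42% were, and the mean difference was -30.7 percentage points (68.8 against 99.5%, exact permutation p = 0.00025, adjusted p = 0.000958). Arrested WT SE members were few and of another make: 0 to 39.3% were on coding ends, and 31.5 to 71.4% had a prey whose strand and side of the site disagree, so that the read runs across the break site. In arrested WT CE libraries 1.89 to 2.53% did so.

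In Ku70-/- cells with L82-G17 the members were more often on the bait's own kind of end. From the CE bait, coding ends made up 59.04, 67.72 and 68.02% of members with DMSO, 66.4 to 67.5% with L67 and 73.8 to 75.4% with L82-G17. SE bait members were on coding ends in 65.5, 60.4 and 58.0% with DMSO, in 60.9 to 66.1% with L67 and in 43.9 to 46.7% with L82-G17. The L82-G17 libraries lay outside the range of the DMSO libraries for both baits. Joints nearer than 20 bp differed the same way, with 59.40 to 67.03% on coding ends with DMSO and 76.99 to 77.97% with L82-G17 for the CE bait. For the SE bait nearer joints had 41.6 to 43.7% on coding ends with DMSO and 30.8 to 33.1% with L82-G17. These end-kind differences between treatments were not tested.

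The resected share also differed between coding and signal end preys. From the SE bait, the resected share was higher among coding end preys than among signal end preys in 9 of 9 arrested Ku70-/- libraries, at 35.1 to 48.6% against 16.8 to 34.6%. From the CE bait it was higher among coding end preys in 5 of 9 libraries, at 27.1 to 41.5% against 27.3 to 44.4%. There the 3 L82-G17 libraries had 39.7 to 41.5% for coding and 44.1 to 44.4% for signal end preys. With distinct members, the halving distance of the L82-G17 libraries was longest on the end of the other kind than the bait. It was 17.7 to 18.3 bp on signal ends and 13.0 to 14.0 bp on coding ends for the CE bait, and 12.3 to 14.5 bp on signal ends and 17.3 to 18.2 bp on coding ends for the SE bait. Many signal end members had lost the whole 28-bp RSS, 46.3 to 64.2% from the CE bait and 43.3 to 55.0% from the SE bait.

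Resection at the Vκ end went with resection at the Jκ1 end. The median loss at the bait end was 19 to 24 bp in members and 10 to 13 bp in nearer joints of the same arrested Ku70-/- CE libraries. For SE libraries it was 13 to 26 bp in members and 8 to 10 bp in nearer joints. Members had the larger median in 9 of 9 libraries of each bait. A loss of 20 bp or more at the bait end was found in 49.7 to 54.2% of CE members against 16.4 to 20.0% of nearer joints. For the SE bait these shares were 35.7 to 57.1% and 12.6 to 18.4%. The commonest bait loss among distinct members was 16 bp for the CE bait (8.41% of 49116), which was also the commonest among nearer joints (7.54% of 58881). Among distinct SE members it was 37 bp (6.38% of 36278), which leaves 2 bp of the 39-bp Jκ1 RSS. The arrested WT CE members had a median bait loss of 1 or 2 bp.

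The joints were sorted by MH (bait and prey alignments overlap by 2 bp or more), a 1-bp overlap, a direct join, or an insertion between them. Among Ku70-/- CE members 17.6% ± 4.24 (SD, n = 9) used MH over 1 bp, against 1.51% ± 1.23 (n = 9) in WT. The difference of 16.1 percentage points passed the test (exact permutation p = 0.00025, adjusted p = 0.000958). Its size depended on inserted runs in WT. Without members carrying an insert of 10 or more bases it was 3.25 points (17.7 against 14.4%, exact permutation p = 0.32), and with a lower bound of 30 bp it was 6.63 points (exact permutation p = 0.133). MH over 1 bp in SE members was at 20.0% ± 3.90 in Ku70-/- and 20.8% ± 14.7 in WT members, and WT libraries spread from 1.44 to 43.7%. This difference of -0.779 points follows the choice of sites, which the WT SE libraries placed, and is given without a test. With sites placed by the Ku70-/- SE libraries it was 18.6 points. Direct joins made up 47.4 to 63.1% of members in arrested Ku70-/- libraries of both baits.

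Among arrested Ku70-/- libraries, MH was in most libraries no more frequent in members than in nearer joints. From the CE bait MH over 1 bp was in 8.01 to 22.1% of members and 13.3 to 22.6% of nearer joints, and members were higher in 2 of 9 libraries. In SE libraries the shares were 18.05 to 30.32% and 19.51 to 28.01%, with members higher in 1 of 9, which was DMSO replicate 1. With distinct joints, members were higher in 5 of 9 CE and 0 of 9 SE libraries. The comparison by distance counts all reads and was not made with distinct joints. Its bin at 100 to 200 bp held 0.967 to 4.51% of members. Within the members, MH over 1 bp was more frequent at 100 to 200 bp than at 20 to 29 bp in 9 of 9 CE and 8 of 9 SE libraries, with DMSO replicate 1 the exception for SE. The shares were 13.9 to 36.7% against 10.5 to 19.3% for the CE bait. Most MHs were short: 2-bp MHs were 51.2% of those over 1 bp among distinct CE members and 50.3% among distinct SE members, and the longest overlap in a library was 7 to 19 bp.

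Cycling Ku70-/- cells gave a different mix. MH over 1 bp was in 41.4, 54.7 and 43.7% of CE members against 25.4 to 30.8% of nearer joints. Of cycling SE members 46.1, 22.4 and 43.2% had it. With distinct joints the members had 37.9 to 42.7% in the 6 cycling libraries, more than the nearer joints of the same library in all 6, and the arrested Ku70-/- libraries had 15.1 to 20.5%. Direct joins made up 15.0 to 27.8% of cycling CE members, and insertions 13.7 to 20.8%. Of cycling SE members 25.6, 62.3 and 32.2% were direct, and 4.83 to 11.2% had insertions. The cycling samples differ from the DMSO samples both in STI-571 and in the number of distinct joints, and these cannot be told apart.

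The MH share with L82-G17 was above that with DMSO for the CE bait by 7.86 percentage points, with libraries at 22.1, 21.8 and 20.4% against 8.01, 15.3 and 17.4% (exact permutation p = 0.1, adjusted p = 0.177). It was 5.08 points without DMSO replicate 1 and 3.54 points with distinct members. For the SE bait the difference was -3.77 points (exact permutation p = 0.6), and it was 0.160 points without DMSO replicate 1. With L67 the differences were 4.17 points (CE, exact permutation p = 0.2) and -3.62 points (SE, exact permutation p = 0.8), and 1.39 and 0.307 points without DMSO replicate 1.

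**Figure D3:**
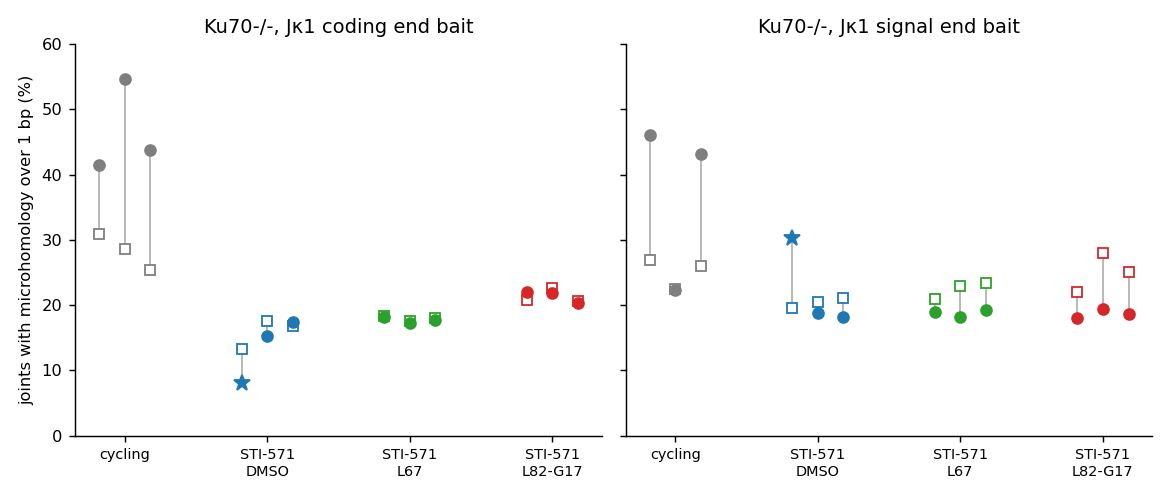
Percent of joints with microhomology over 1 bp in Ku70-/- libraries of each bait and treatment. Filled points are members 20 to 200 bp from the site, open squares are nearer joints of the same library, and stars are DMSO replicate 1. Cycling CE members lie at 41.4 to 54.7%, above their nearer joints, while members of arrested libraries lie close to or below theirs, except SE DMSO replicate 1 (30.3% against 19.5%).

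Insertions were more frequent in WT than in Ku70-/- CE members. They were in 77.7 to 96.9% of arrested WT CE members and in 0.912 to 3.02% of arrested Ku70-/- CE members (difference -88.6 percentage points, exact permutation p = 0.00025, adjusted p = 0.000958). With distinct joints, insertions were in 95.6 to 98.1% of WT and 11.7 to 33.6% of Ku70-/- CE members (difference -81.6 points). They were in 10.6 to 32.2% of distinct Ku70-/- SE members. Joints that differ in insert length are counted apart here. The highest of these Ku70-/- values were those of DMSO replicate 1, and without it the distinct members had 11.7 to 14.0% (CE) and 10.6 to 14.8% (SE). Nearer WT CE joints had insertions in 12.5 to 15.2% of all joints and 51.8 to 62.0% of distinct joints. From the SE bait insertions were in 2.16 to 34.8% of WT and 0.449 to 2.79% of Ku70-/- members, and the groups overlapped. The WT SE libraries placed the sites, so these values are given without a test. The difference of -14.2 points became -0.462 points with sites placed by the Ku70-/- SE libraries.

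The WT insertions were long, and their length followed the distance of the joint. Of 16093 members in arrested WT CE libraries, 14224 carried an insert of 10 or more bases, with a median of 20 bases. In 13083 of these (92.0%) the distance exceeded the insert length by 0 to 10 bp, so that the prey and the insert together spanned nearly the whole stretch to the break. On average 58.4% of the inserted bases matched the germline bases that they replaced at the same positions. Whether these bases were added at the joint or belong to another Vκ segment was not tested. Without inserts of 10 or more bases, 1869 WT CE members were left, and the resected share of WT CE libraries was 0.031 to 0.127%. In arrested Ku70-/- cells such inserts were in 2161 of 355707 CE members and 1153 of 374470 SE members, and 39.3 and 49.9% of them had a distance 0 to 10 bp above the insert length.

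**Figure D4:**
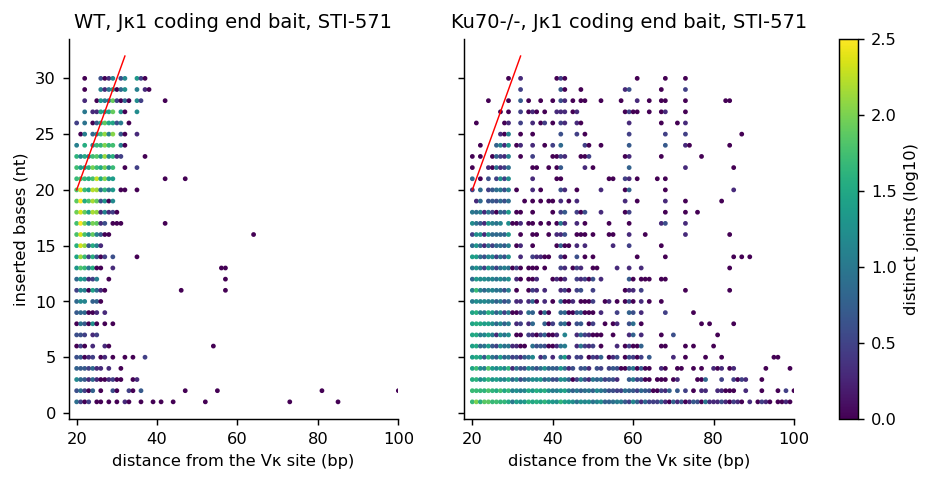
Inserted bases against distance from the site (bp) for distinct CE members with an insertion, in arrested WT and Ku70-/- libraries. Colour gives the log10 number of distinct joints and the red line marks equal distance and insert length. The WT joints lie along the line, around inserts of 20 bases.

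Members were found at 65 to 115 of the 122 sites in arrested Ku70-/- libraries (107 to 115 without DMSO replicate 1). Sites without members include some with no Vκ joints of any kind. Igkv3-3, with 3770 pooled WT junctions, had none in any arrested Ku70-/- CE library. Over the 8 arrested Ku70-/- CE libraries without that replicate, the mean resected share of 65 well-covered sites ran up to 56.4% at Igkv2-109, with a median of 36.5% and a median SD within a site of 6.38 percentage points. From the SE bait 69 sites ran up to 50.0% at Igkv9-124, with a median of 35.4% and a median SD of 9.37 points. The lowest value of both baits, 16.8% (CE) and 15.6% (SE) at Igkv6-32, is lowered by the assignment of joints. Another site, at 70024072 with 300 pooled junctions and no CAC, lies 55 bp away on its coding side and takes its farther coding joints, while the next smallest gap between sites is 324 bp. Apart from Igkv6-32, the lowest sites were Igkv3-12 with 27.7% (CE, 20.0 to 37.8%) and Igkv1-132 with 23.8% (SE, 12.5 to 33.6%). Igkv2-109, at the other extreme, had 40.2 to 64.9%. These sites were picked as extremes of the same libraries. From the SE bait Igkv2-109 had 31.9% on average (12.7 to 44.2%), below the median site. Over the 64 sites measured from both baits, the shares had a Spearman correlation of 0.349 and a Pearson correlation of 0.474, and without Igkv6-32 and the site next to it 0.317 and 0.363 (62 sites). These are descriptions across sites, which share libraries and sequence families. Deletional and inversional sites had median shares of 39.9 and 36.0% (CE) and 33.0 and 35.9% (SE).

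The extremes among DMSO libraries were set mostly by replicate 1. Igkv9-124 (position 67892067) led from both baits, with 99.6, 51.0 and 54.3% from the CE bait and with 99.96, 50.16 and 61.34% from the SE bait in replicates 1, 2 and 3. In the other 6 arrested CE libraries it had 49.6 to 60.7%, and in the other 6 SE libraries 8.40 to 64.8%, the lowest being L82-G17 replicate 2 with 10 members. Igkv10-94, Igkv10-95, Igkv4-74 and Igkv14-130 followed for the CE bait, with 94.4 to 100% in replicate 1 and 36.4 to 51.7% in replicates 2 and 3. Igkv4-70, Igkv12-38, Igkv4-59 and Igkv4-86 followed for the SE bait, with 92.3 to 99.8% and 16.8 to 53.2%. The lowest CE sites were Igkv6-32 (its value lowered by the assignment of joints), Igkv5-43, Igkv4-58, Igkv4-81 and Igkv13-84, with 0 to 0.512% in replicate 1 and 9.88 to 31.8% in the others. The lowest SE sites were Igkv3-12, Igkv1-133, Igkv1-132 and the unannotated sites at 69631399 and 69829343, with 0 to 0.507% in replicate 1 and 12.5 to 29.4% in the others.

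**Figure D5:**
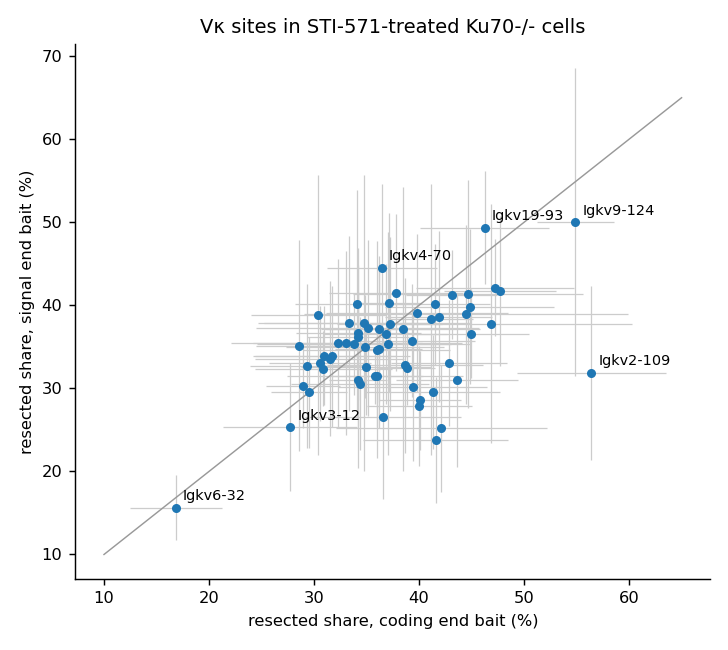
Mean resected share of each well-covered site (percent) from the CE bait against that from the SE bait, over the 8 arrested Ku70-/- libraries of each bait without DMSO replicate 1. Bars are SDs over libraries and the line marks equality. Shares run from 16.8 to 56.4% (CE) and from 15.6 to 50.0% (SE), with the lowest point of both baits at Igkv6-32, which loses joints to the site 55 bp away.

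No single site passed the test for an inhibitor, while most sites lay above DMSO. With limma on the log2 odds of a joint being resected, 0 of 100 CE sites (0%) and 0 of 103 SE sites (0%) passed an adjusted p of 0.05 for either inhibitor. At an unadjusted p under 0.05 there were 2 (L67) and 4 (L82-G17) CE sites, and 3 (L67) and 9 (L82-G17) SE sites. The odds were above those with DMSO at 64 (L67) and 74 (L82-G17) of 100 CE sites, with median changes of 0.62 and 0.86 on the log2 scale. They were above at 65 and 75 of 103 SE sites, with medians of 0.62 and 0.92. Both inhibitors share the DMSO libraries. Without DMSO replicate 1 the medians were 0.11 (L67, 66 of 101 sites above) and 0.55 (L82-G17, 85 of 101) for the CE bait, and 0.24 (70 of 105) and 0.61 (76 of 105) for the SE bait. Without CE DMSO replicate 1, 7 of 101 sites passed for L82-G17, all upward, with 2 DMSO libraries left. These were Igkv17-121 (log2 change 2.85 ± 0.52 SE), Igkv14-100 (2.08 ± 0.43), Igkv2-116, Igkv5-48, Igkv6-15, Igkv6-17 and Igkv3-10 (1.24 to 1.73), with limma adjusted p of 0.0315 to 0.0367.

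The single positions with the most distinct members lay 20 to 29 bp from their sites, on coding ends except for 1 of the SE bait. The next lines give the coding flanks and heptamers at 6 sites, in the direction of the gene. Capitals mark the bases between the aligned prey and the break at the coding end position with the most distinct members (for Igkv1-135, from the CE bait). Most of these joints carried inserted bases, so the capitals do not show that the segment's end was lost without replacement.
Igkv8-21: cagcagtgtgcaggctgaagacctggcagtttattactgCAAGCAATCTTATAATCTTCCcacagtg
Igkv4-70: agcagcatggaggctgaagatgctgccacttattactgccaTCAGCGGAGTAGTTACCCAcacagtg
Igkv4-69: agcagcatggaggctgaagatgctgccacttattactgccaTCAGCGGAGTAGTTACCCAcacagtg
Site 69581641: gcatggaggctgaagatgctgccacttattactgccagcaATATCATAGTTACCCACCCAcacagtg
Site 69413187: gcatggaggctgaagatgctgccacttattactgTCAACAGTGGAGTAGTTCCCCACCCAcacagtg
Igkv1-135: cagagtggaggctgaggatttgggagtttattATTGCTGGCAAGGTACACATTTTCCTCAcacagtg
The ranges, in mm9, are chr6:70264882-70264948, chr6:69217875-69217941, chr6:69233781-69233847, chr6:69581635-69581701 and chr6:69413181-69413247 on the minus strand and chr6:67560443-67560509 on the plus strand. The flanks of Igkv4-70 and Igkv4-69 are identical over the printed bases, so reads could have been assigned to either, and their counts are uncertain.

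Igkv8-21 had the most from the CE bait, with 238 distinct joints in 8 of 9 arrested Ku70-/- libraries at position 70264910. There the aligned prey began 21 bases short of the break. Igkv4-70 followed with 178 distinct joints, site 69581641 with 173, Igkv1-135 with 142 and site 69413187 with 123. From the SE bait Igkv4-70 led with 132 distinct joints, followed by site 69581641 with 124, Igkv8-21 with 123, Igkv4-69 with 92 and, on the signal end of Igkv1-135, position 67560523 with 85. Joints that differ in insert length counted as distinct, so this ranking favoured positions with varied insertions. At each of these positions 67.2 to 92.7% of the distinct joints carried an insertion. Inserts of 10 or more bases were in 23.5 to 68.3%, and 49.4 to 70.6% of their bases matched the germline bases they replaced. Whether these positions reflect resection was not tested.

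Some exact joints, alike in both ends, recurred between libraries, and those shown here were picked after their values were seen. Over arrested and cycling libraries together, there were 39304 exact Ku70-/- CE members, of which 158 were in 6 or more libraries, and MH over 1 bp was in 31.6% of these and in 14.8% of the 32485 found in a single library. Of 29587 exact SE members, 56 were in 6 or more libraries, with 42.9% against 14.5%. Insertions were in 17.5% of single-library CE joints and 5.70% of those in 6 or more libraries, and in 18.6 and 1.79% for SE. An MH joint is matched as a single joint wherever within the shared bases the ends were joined, which was not corrected for. Whether recurrence comes from independent joining or from DNA shared between libraries was not tested. The lines below give 5 of the most recurrent joints among those with MH over 1 bp. Joints without it were not considered for this list. Each is given as the read runs, bait first, with the MH shared by both ends in capitals.
Igkv3-12 signal end, CE bait: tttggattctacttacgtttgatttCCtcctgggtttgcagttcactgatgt
Igkv11-125 coding end, CE bait: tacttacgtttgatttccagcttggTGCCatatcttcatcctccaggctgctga
Igkv1-135 coding end, CE bait: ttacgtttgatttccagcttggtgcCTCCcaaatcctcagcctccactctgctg
Gm16637 coding end, SE bait: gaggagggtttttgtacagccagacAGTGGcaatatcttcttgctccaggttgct
Igkv1-110 signal end, SE bait: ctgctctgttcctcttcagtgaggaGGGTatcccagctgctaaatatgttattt
The Igkv3-12 joint was in 12 of 12 Ku70-/- CE libraries with 551 reads, 13 to 79 per library, and had lost 26 bp of the Vκ signal end and 27 bp of the bait. The Igkv11-125 joint was in 11 libraries with 756 reads, at 36 bp and with 16 bp lost from the bait, the commonest bait loss. The Igkv1-135 joint was in 11 libraries with 337 reads, at 35 bp and with 13 bp lost from the bait. From the SE bait the Gm16637 joint, with 5 bp of MH inside the Jκ1 spacer, was in 10 libraries with 266 reads. The Igkv1-110 joint, in 8 libraries with 125 reads, had lost 36 bp of the bait signal end, so that its MH covered the first bases of the Jκ1 nonamer and the base before it.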

How the data were processed

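The authors trimmed the read pairs, took each library down to 500000 read pairs, mapped them to mm9 (Bowtie2 is named in the submitters' processing notes) and deposited lists with 1 junction per line, duplicates kept. The values used from these deposited lists are the position and strand of the prey, the bait's end, and the read coordinates of both alignments; counts, percentages and log2 odds were computed here. Duplicate reads and the fixed sampling make a count depend on amplification, so shares were also taken over distinct joints.

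All 48 libraries were grouped by their labels (3 per group), and none was left out. Each junction was given to the nearest of the 122 sites. End kind was read from the prey strand, MH from an overlap and insertion from a gap of the 2 alignments. Gene names came from the NCBIM37 annotation within 30 bp of a site. Members and lists were chosen with earlier results of these data known.

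Differences of library means were tested by exact permutation, two-sided (Benjamini-Hochberg over 23 tests), Ku70-/- against WT by rearranging libraries within treatments (8000 arrangements). The adjustment includes 2 tests against WT SE members whose p-values are not printed, since those libraries placed the sites. Sites with at least 50 joints on average were fitted with limma 3.58.1 (R 4.3.3) on log2 odds with a pseudocount of 0.5. In simulated data 17 (CE) and 13 (SE) of 20 sites changed by 2 on the log2 scale were recovered. The simulated scatter and baseline left out DMSO replicate 1, which the real fit includes, so this does not show what the real fit could find. The sites named are the 5 highest and 5 lowest per bait by mean share over Ku70-/- DMSO libraries with 500 or more joints on average, and the 5 positions with the most distinct members. Sites that passed without a library, well-covered sites at the extremes of 8 libraries and recurrent joints with MH over 1 bp were named after their values were seen. Alternatives were other distance bounds (30 and 100 bp), other sites (1000 or more junctions, or sites from Ku70-/- libraries), distinct joints, equal site weight, all read pairs as denominator, members not reading across the break, MH of 1 bp, other filters and pseudocount 2, and each library left out. Sites with CAC only and members without inserts of 10 or more bases were added after seeing the data.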

Additional observations from a re-analysis of the deposited data

How the results depend on the processing

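Without leaving out libraries, 209 recomputed values kept their direction and their side of the threshold and 16 did not. The difference in MH between Ku70-/- and WT CE members no longer passed with a lower bound of 30 bp (6.63 percentage points) or without inserts of 10 or more bases (3.25 points), and the SE difference in insertions shrank to -0.462 points with sites from Ku70-/- libraries. With those sites the SE difference in MH turned to 18.6 points, the SE difference between DMSO and cycling shares to -8.58 points and the WT difference with L67 to -0.756 points. The SE difference in MH also turned with an upper bound of 100 bp (1.32 points) and without members reading across the break (5.87 points). With a lower bound of 30 bp, DMSO against cycling became -0.0421 points (SE) and L82-G17 in WT 0.00282 points, and without long inserts the latter was 0.0271 points. Over all read pairs, DMSO against cycling became 6.08 points (CE) and L82-G17 against DMSO -1.38 points (SE). With MH of 1 bp counted, the SE differences became 0.922 (L67) and 4.17 points (L82-G17). With no filter on joints, limma called 1 SE site for L67, downward. The cause of these changes was not tested.

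With 1 library left out, 246 values kept both and 12 did not. The exceptions were the SE difference in MH between genotypes (-4.88 to 2.15 points), the SE differences in MH with L67 (-5.73 to 0.307 points) and with L82-G17 (-5.87 to 0.160 points), DMSO against cycling shares for SE (-0.757 to 1.97 points), L82-G17 in WT CE (-0.208 to 0.00196 points), the SE median distance with L82-G17 (-0.167 to 1.33 bp) and the number of CE sites called with L82-G17 (0 to 7). No paired analysis was possible because the labels give no replicate numbers. Depth limits the WT SE and cycling values most, with 16 to 68 distinct members in arrested WT SE libraries.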

Other observations

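Inhibitor and arrest differences were compared between genotypes or baits in 5 exact permutation tests, and none passed the adjustment. Libraries were rearranged between treatments separately within each genotype or bait. The tests therefore ask whether there was a treatment difference in either, and cannot decide whether the differences were unequal. The difference between DMSO and cycling shares of Ku70-/- cells was 10.4 percentage points lower for the CE than for the SE bait, from -9.85 and 0.560 points (exact permutation p = 0.04, adjusted p = 0.0667). With distinct joints the same differences were -2.56 and 0.356 points. With sites placed by the Ku70-/- SE libraries the SE difference was negative too. The MH difference with L82-G17 was 11.6 points higher for the CE than for the SE bait (exact permutation p = 0.03, adjusted p = 0.0667), and that with L67 7.79 points higher (exact permutation p = 0.125). Without DMSO replicate 1 the differences were 5.08 (CE) and 0.160 points (SE) with L82-G17 and 1.39 and 0.307 points with L67. Counting all reads, nearer joints of both baits had more MH with L82-G17 than with DMSO, which was not tested. These tests treat the libraries of the baits as unrelated. Between genotypes, the difference in resected share was 10.4 points larger in Ku70-/- than in WT CE libraries with L82-G17 (exact permutation p = 0.025, adjusted p = 0.0667) and 4.30 points larger with L67 (exact permutation p = 0.09, adjusted p = 0.112). These comparisons are of percentage points, and WT shares under 1% bound the WT difference, so they do not compare relative changes. The Ku70-/- differences were far larger than the WT ones, so the p-values between genotypes rest mainly on the Ku70-/- libraries. With L67 the mean shares were 35.4% against 31.0% with DMSO in Ku70-/- and 0.684% against 0.604% in WT cells. With L82-G17 they were 41.4% against 31.0% in Ku70-/- and 0.522% against 0.604% in WT cells.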
